A study of Mus musculus with 14 samples.

Results

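The 32 genes described here encode the enzymes of glycolysis, the PFKFB enzymes that regulate it, the kinases of pyruvate dehydrogenase and parts of the hypoxia (HIF) pathway. They were chosen by name, as the rows of the count table with those symbols, and all 32 of the names were found in the table, which has 23420 rows under 23418 symbols. Of these, 30 passed the low-count filter, as did 14217 genes in all. The study measured polyadenylated RNA of mouse popliteal lymph-node dendritic cells (DCs) by Smart-seq2, a full-length method for small samples, in 14 libraries of 150 sorted cells each. The cells were endogenous C57BL/6 DCs, high in MHC class II, positive for CD11c and CD11b and negative for XCR1.

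All mice received DCs pulsed with an ovalbumin peptide (500000 per footpad) and, 18 hours later, 300000 OT-II CD4+ T cells, whose receptor recognises that peptide. A biotin substrate (300 nmol per footpad) was given 46 hours after the T cells, and the nodes were taken at 48 hours. In 12 libraries the recipients and the transferred DCs were Cd40 G5/G5, so their CD40 carried a tag that the enzyme sortase A can label, and the T cells were CD40lg SrtA/Y CD4-Cre OT-II, with sortase on CD40 ligand. CD4-Cre acts in T cells. These DCs were sorted as biotin-positive (6 libraries), which had taken up the label, or biotin-negative (6 libraries). The third group (2 libraries) came from Cd40-/- mice whose transferred DCs and OT-II cells were both wild type, so that genotype and both transferred cell types differ together, and these DCs were sorted without a biotin gate. The ages of the mice, and whether libraries came from separate mice, are not given in the sources used here, and every p-value reflects only how much these libraries vary, which may be technical.

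Glycolysis splits glucose to pyruvate in the cytosol. Lactate dehydrogenase turns pyruvate into lactate, whereas pyruvate dehydrogenase, which the PDK kinases switch off, passes it to mitochondria. PFKFB enzymes make or remove a regulatory sugar phosphate that activates phosphofructokinase, and PFKFB3 favours its making. When oxygen falls, the hydroxylases encoded by the Egln genes no longer mark HIF for destruction through VHL, and HIF raises most glycolytic genes along with Bnip3, Vegfa and Egln3. In DCs, activation through Toll-like receptors is known to raise glycolysis.

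Library totals ran from 14518099 to 33260704 counts. Counts were found for 13090 to 13455 genes in biotin-positive, 14225 to 15742 in biotin-negative and 13113 and 13596 in Cd40-null libraries, so the biotin groups did not overlap. Cd40 itself stood at 852 to 1309 CPM (counts per 1e6, scaled for library composition) in biotin-positive, 386 to 598 in biotin-negative and 53.3 and 74.2 CPM in Cd40-null libraries. Of 8 conventional DC markers 0 were at 0 in any library. Their sum was 4448 to 5690 CPM in biotin-positive libraries, 5981 to 7578 CPM in biotin-negative ones and 4620 and 5563 CPM in Cd40-null ones, and 4 of the 8 were called lower in biotin-positive than in biotin-negative libraries. Among them Itgam, which encodes the sort marker CD11b, was at 0.0516 to 5.88 CPM in biotin-positive, 10.1 to 65.0 in biotin-negative and 11.2 and 18.3 CPM in Cd40-null libraries. Of the 8, 0 were called higher. Flt3 was at 907 to 1156 CPM in biotin-positive and 741 to 968 CPM in biotin-negative libraries, with overlap. Zbtb46 was at 142 to 251 and 121 to 199 CPM, also with overlap. Ccr7 and H2-Aa made most of the summed level. The summed level of 12 monocyte and macrophage markers was 77.8 to 230.5 CPM in biotin-positive, 254.6 to 1151 in biotin-negative and 307 and 463 CPM in Cd40-null libraries, with 2 to 5, 0 to 3 and 1 to 3 of them at 0. The macrophage receptor Cd163 was at 0 to 1.58 against 10.9 to 43.5 CPM in the biotin groups. The summed level of the Langerhans cell markers Cd207 and Epcam was 212 to 293, 30.6 to 103 and 90.4 and 101 CPM in the same order of groups. The 9 T cell markers found summed to 263 to 381, 384 to 639 and 147 and 264 CPM, of which Il7r alone made 215 to 346, 355 to 584 and 115 and 167 CPM. The median log2 difference of these 9 between the biotin groups was 1.196, opposite to their sum, with 0 called higher and 1 lower. The 4 plasmacytoid DC markers summed to between 53.2 and 107 CPM in every library. Lists for B, NK, erythroid cells and neutrophils summed to at most 71.0 CPM. The 2 markers of the type gated out, Xcr1 and Clec9a, summed to at most 4.47 CPM in any library. The sums of the monocyte and macrophage, Langerhans, T cell and conventional DC markers did not overlap between the biotin groups, nor did the number of genes detected. For T cell markers the gap was narrow. The part of these measures in the results was not tested. The plasmacytoid DC, B, NK, neutrophil and erythroid sums overlapped between these groups, with 0 markers called. In such bulk samples, fewer cells of a type and less RNA per cell cannot be told apart.

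The 32 genes held 0.865% ± 0.0670 of counts in biotin-positive (SD, n = 6), 0.651% ± 0.0380 in biotin-negative (SD, n = 6) and 0.630% ± 0.00495 in Cd40-null libraries (SD, n = 2). A single gene, Pfkfb3, made up 59.9% ± 3.27 of them in biotin-positive, 51.0% ± 4.98 in biotin-negative and 41.4% ± 5.56 in Cd40-null libraries. Without Pfkfb3, the other genes summed to 3496 ± 172, 3151 ± 243 and 3643 ± 166 CPM in the same order. Most of the difference between the biotin groups thus lay in Pfkfb3, and the mean sum of the others was highest in the Cd40-null libraries.

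To compare genes with each other, levels were taken per kilobase of annotated exon and scaled to the same total in each library over the 21711 genes whose length was known. On this length-corrected scale Pfkfb3 led the 30 members with a length, at 2872 ± 413 in biotin-positive, 1869 ± 317 in biotin-negative and 1431 ± 252 in Cd40-null libraries. It ranked between 26 and 48 among all genes in biotin-positive libraries and between 39 and 94 in biotin-negative ones. Eno3, an enolase best known from muscle, came next at 1446 ± 91.2 in biotin-positive, 803 ± 95.6 in biotin-negative and 1042 ± 178 in Cd40-null libraries. In biotin-positive libraries the aldolase Aldoa (601 ± 64.3) and the dehydrogenase Gapdh (597 ± 61.5) followed and did not differ beyond their spread. Pdk3 stood at 306 ± 46.8, and the kinase Pgk1 (241 ± 26.9) and the mutase Pgam1 (234 ± 31.3), successive steps of the pathway, again lay within each other's spread. Eno2 (176 ± 17.98), Ldha (170.5 ± 23.3), Eno1 (146 ± 12.8), Hif1a (141 ± 11.7), Gpi1 (139.5 ± 13.7) and Tpi1 (138 ± 24.9) came next, with each overlapping its neighbours in this order. The order of these genes depends on the length used. Per kilobase of the longest annotated transcript, biotin-positive Eno1 stood at 295 ± 25.6, above Pdk3 (282 ± 43.3) and Pgk1 (226 ± 25.1), and Gpi1 at 214 ± 20.9, above Pgam1 (199 ± 26.3), while Pfkfb3, Eno3, Aldoa and Gapdh still led. The entry enzymes stood lower, with Hk1 at 21.7 ± 3.66 and Pfkl, a phosphofructokinase subunit, at 45.4 ± 11.7.

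**Figure D1:**
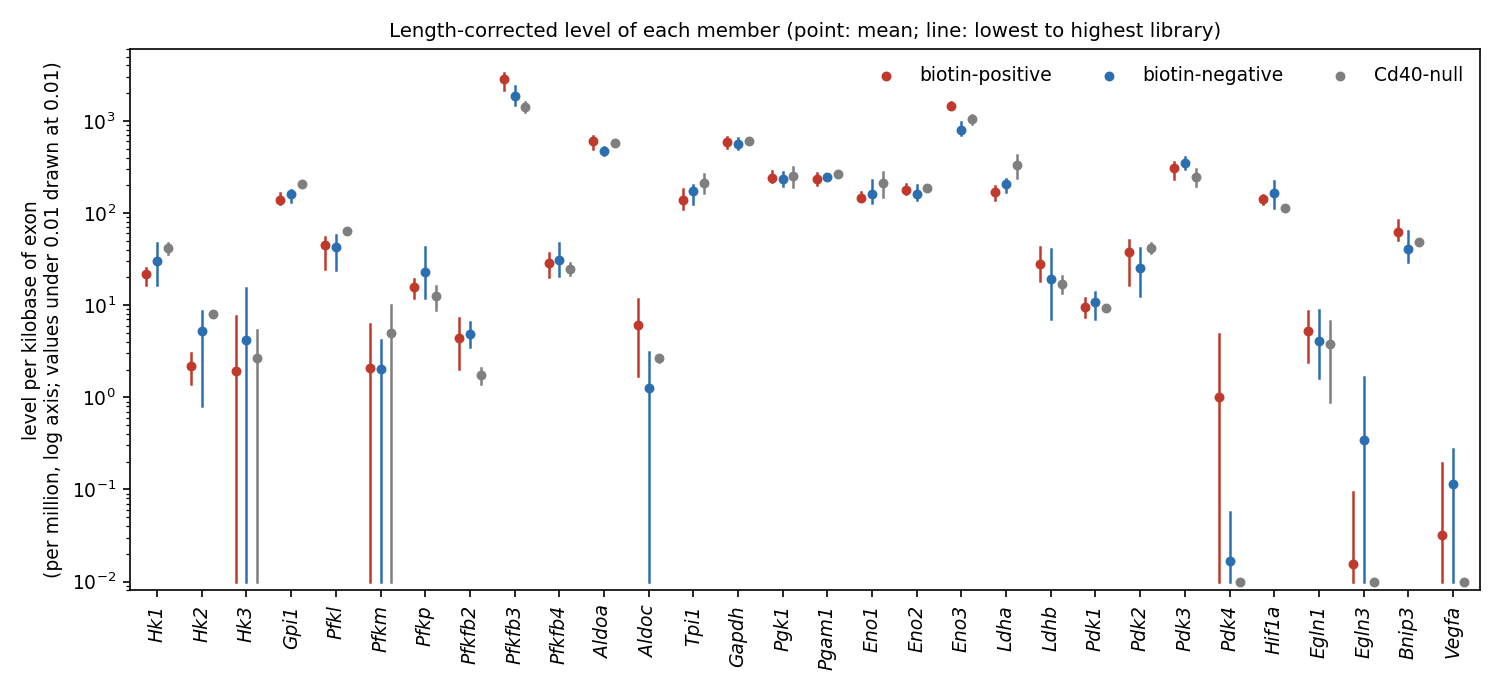
Length-corrected level of the 30 members with a known length (log axis), with the mean as a point and a line from the lowest to the highest library of 6 biotin-positive, 6 biotin-negative and 2 Cd40-null libraries. Pfkfb3 and Eno3 stand highest, and Hk3, Pfkm, Aldoc, Pdk4, Egln3 and Vegfa reach 0 in some libraries.

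For most steps 1 of the isozymes listed made up most of the length-corrected transcripts in all 3 groups. Protein and enzyme activity were not measured. All shares are among the members only. Of the length-corrected transcripts of Pfkfb2, Pfkfb3 and Pfkfb4, Pfkfb3 made 98.9% ± 0.232 in biotin-positive, 98.1% ± 0.772 in biotin-negative and 98.1% ± 0.641 in Cd40-null libraries. Pfkfb1, which is not a member and was left out, stood at 6.28 ± 2.56, 4.08 ± 2.93 and 2.96 ± 1.51 CPM in that order. Aldoa made 97.7 to 100% of aldolase in the libraries of the biotin groups, against the brain isozyme Aldoc. Hk1, the housekeeping hexokinase, made 84.2% ± 9.95, 76.6% ± 13.6 and 79.1% ± 10.0 of hexokinase, and the liver-type subunit Pfkl 71.2% ± 9.35, 63.2% ± 6.63 and 78.4% ± 0.717 of phosphofructokinase, in the same order of groups. Of the PDH kinases, Pdk3 made 86.5% ± 2.77, 90.6% ± 2.83 and 82.5% ± 2.37. Ldha, which encodes the subunit that favours lactate, made 85.7% ± 4.90, 91.5% ± 5.18 and 94.95% ± 0.562 of lactate dehydrogenase.

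The enolase family was led by the muscle type. Eno3 made 79.9 to 84.2% of enolase in biotin-positive libraries (median 81.8%), 67.7 to 73.4% in biotin-negative ones (median 72.4%), and 67.0 and 76.7% in Cd40-null libraries. The biotin groups did not overlap in this share, which follows from the level of Eno3 itself and gives no evidence apart from it. The ubiquitous Eno1 made up 8.27% ± 0.824 and 14.2% ± 2.34 of enolase in biotin-positive and biotin-negative libraries, and the neuronal Eno2 9.97% ± 0.992 and 14.6% ± 2.69. With the longest transcript as length, these shares were 16.9% and 26.5% for Eno1 and 12.95% and 17.4% for Eno2, so that the order of these 2 turned. Eno1 has a near-identical copy, Gm5506, that took 0 to 396 counts in biotin-positive, 3 to 627 in biotin-negative and 682 and 855 counts in Cd40-null libraries. Summed with it, Eno1 stood at 197 ± 19.9, 219 ± 41.5 and 309.6 ± 112 CPM.

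**Figure D2:**
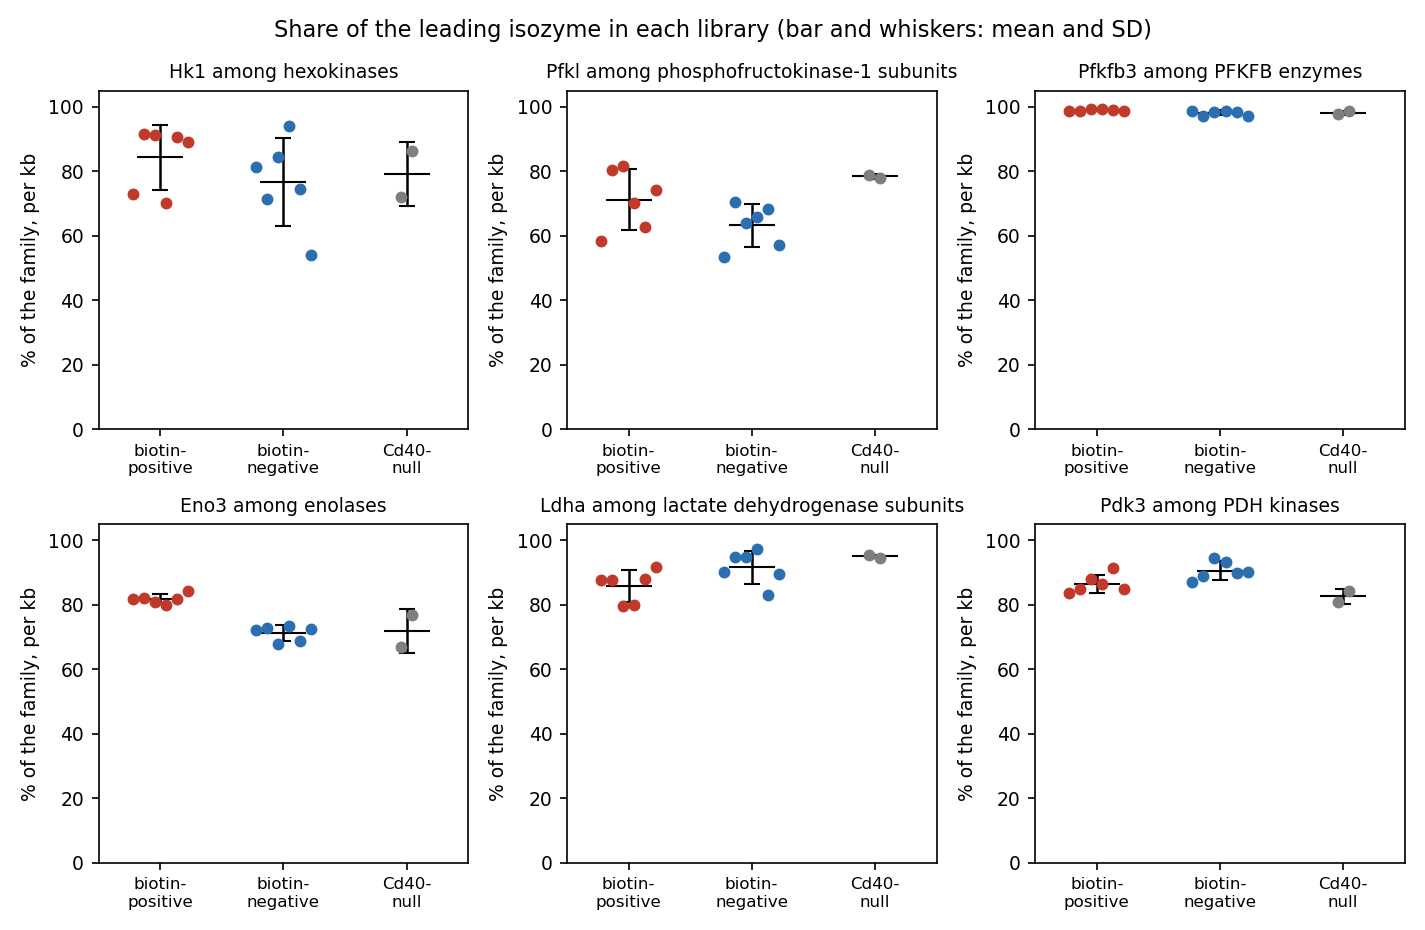
Share of the leading isozyme of 6 families in each library, as a percent of the length-corrected transcripts of that family's members, with the mean and SD of each group. Eno3 lies at 79.9% or more in every biotin-positive library and at 73.4% or less in every biotin-negative one, while the other families overlap between these groups.

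The 250 bases before the transcript start of every member were searched for the core of the hypoxia response element. RefSeq sequences (build GRCm38.p6) gave 48 windows for the 32 genes. The core is ACGTG or GCGTG on either strand, and the E-box CACGTG, which other factors bind, contains the first on both strands and so counts as 2 matches. At least 1 match lay in 39 of 48 member windows (81.2%) and in 12679 of 32851 windows of the whole table (38.6%), and the E-box in 14.6% and 6.02%. The member windows also held more CG pairs, which the core contains, with a median of 11 against 6. Of the 5 members that differed between groups, Pfkfb3, Eno3, Aldoa and Ldha had a window with a match. The window with most matches is shown for each (for Aldoa, 1 of 2 that tie), 5′ to 3′ on the gene's strand and ending at the base before the start, with matches in capitals. The window of Gpi1 had none.
Pfkfb3, chr2:11502091-11502340, minus strand: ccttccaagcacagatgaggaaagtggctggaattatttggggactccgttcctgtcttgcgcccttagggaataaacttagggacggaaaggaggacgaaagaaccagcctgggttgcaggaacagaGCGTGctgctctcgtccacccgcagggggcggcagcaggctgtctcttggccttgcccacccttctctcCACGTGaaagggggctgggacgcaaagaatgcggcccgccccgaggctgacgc
Eno3, chr11:70656926-70657175, plus strand: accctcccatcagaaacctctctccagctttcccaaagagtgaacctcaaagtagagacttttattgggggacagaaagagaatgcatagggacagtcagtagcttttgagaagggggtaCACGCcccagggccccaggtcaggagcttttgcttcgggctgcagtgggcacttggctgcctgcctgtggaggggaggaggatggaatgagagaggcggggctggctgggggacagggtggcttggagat
Aldoa, chr7:126799255-126799504, minus strand: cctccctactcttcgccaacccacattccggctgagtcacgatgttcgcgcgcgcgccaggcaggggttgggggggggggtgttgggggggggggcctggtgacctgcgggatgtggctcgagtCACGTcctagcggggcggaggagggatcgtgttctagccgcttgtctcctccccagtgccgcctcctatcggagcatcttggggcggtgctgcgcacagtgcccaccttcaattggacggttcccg
Ldha, chr7:46845554-46845803, plus strand: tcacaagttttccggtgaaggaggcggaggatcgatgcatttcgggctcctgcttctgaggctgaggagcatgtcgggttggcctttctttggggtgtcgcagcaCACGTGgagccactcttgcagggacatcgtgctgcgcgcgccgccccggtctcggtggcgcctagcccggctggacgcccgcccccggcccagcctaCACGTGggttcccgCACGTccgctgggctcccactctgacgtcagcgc
Pfkfb3 held 3 matches, of which 2 form an E-box 53 bases before the start, Ldha 5 with 2 E-boxes, and Eno3 and Aldoa 1 each. Pfkfb3, Aldoa and Ldha have further annotated starts, and the counts do not tell which start was used. A match is a description of letters and not a bound site.

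Biotin-positive and biotin-negative DCs were compared to ask how DCs labelled through CD40 differ from unlabelled ones of the same kind of mouse. Of 30 members tested with edgeR's quasi-likelihood test, Pfkfb3, Eno3 and Aldoa were higher in biotin-positive libraries, 0 were lower and 27 were not called at a false discovery rate (FDR) of 0.05. Over all 14217 genes 3.7% were called higher and 4.05% lower. The members' median log2 fold change was 0.09, beside -0.03 over all genes, and 16 of 30 lay above 0. At an unadjusted p under 0.05 there were 7. The share of all genes at that level was not computed, so no excess among the members can be read from this count.

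Pfkfb3 (GRCm38, chromosome 2, 11471433 to 11554077, minus strand) had a lowest, median and highest level of 4268, 5454 and 5949 CPM in biotin-positive libraries. In biotin-negative libraries these were 2821, 3252 and 3955 CPM, and the Cd40-null libraries held 2253 and 2923 CPM. Every biotin-positive library lay above every other library. The means were 5269 ± 645 and 3297 ± 432 CPM in the biotin groups (SD, n = 6 each), 1.60-fold higher in biotin-positive (log2 0.68, SE 0.10, edgeR adjusted p = 0.000471).

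Eno3 (chromosome 11, 70657202 to 70662513, plus strand), which catalyses the step to phosphoenolpyruvate, stood at 558, 607 and 676 CPM (lowest, median, highest) in biotin-positive libraries, and the biotin-negative ones at 284, 333 and 382 CPM. The groups did not overlap. The Cd40-null libraries, at 379 and 488 CPM, lay below every biotin-positive one and overlapped the biotin-negative ones. The difference was 1.87-fold (612 ± 44.0 against 327 ± 37.4 CPM, SD, n = 6 each, log2 0.90, SE 0.09, edgeR adjusted p = 1.97e-05).

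Aldoa (chromosome 7, 126795234 to 126800751, minus strand), which splits the product of phosphofructokinase, ran from 380.0 to 479.7 CPM (median 419) in biotin-positive and from 279.7 to 388 CPM (median 316) in biotin-negative libraries, and was at 387 and 416 CPM in Cd40-null libraries. The biotin groups overlapped at 1 biotin-negative library. Aldoa was 1.31-fold higher (425 ± 40.6 against 324 ± 38.1 CPM, SD, n = 6 each, log2 0.39, SE 0.09, edgeR adjusted p = 0.0135). Its exons overlap those of Fam57b on the other strand, and counting by strand is not stated.

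When the model also held how many genes each library detected, 0 members were called, and 11 genes in all. The fold change stayed near its size for Pfkfb3 (log2 0.60, adjusted p = 0.385) and Eno3 (0.96, adjusted p = 0.11) and fell to 0.16 (adjusted p = 0.862) for Aldoa. Since the biotin groups did not overlap in detected genes, that measure and the label cannot be told apart here.

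**Figure D3:**
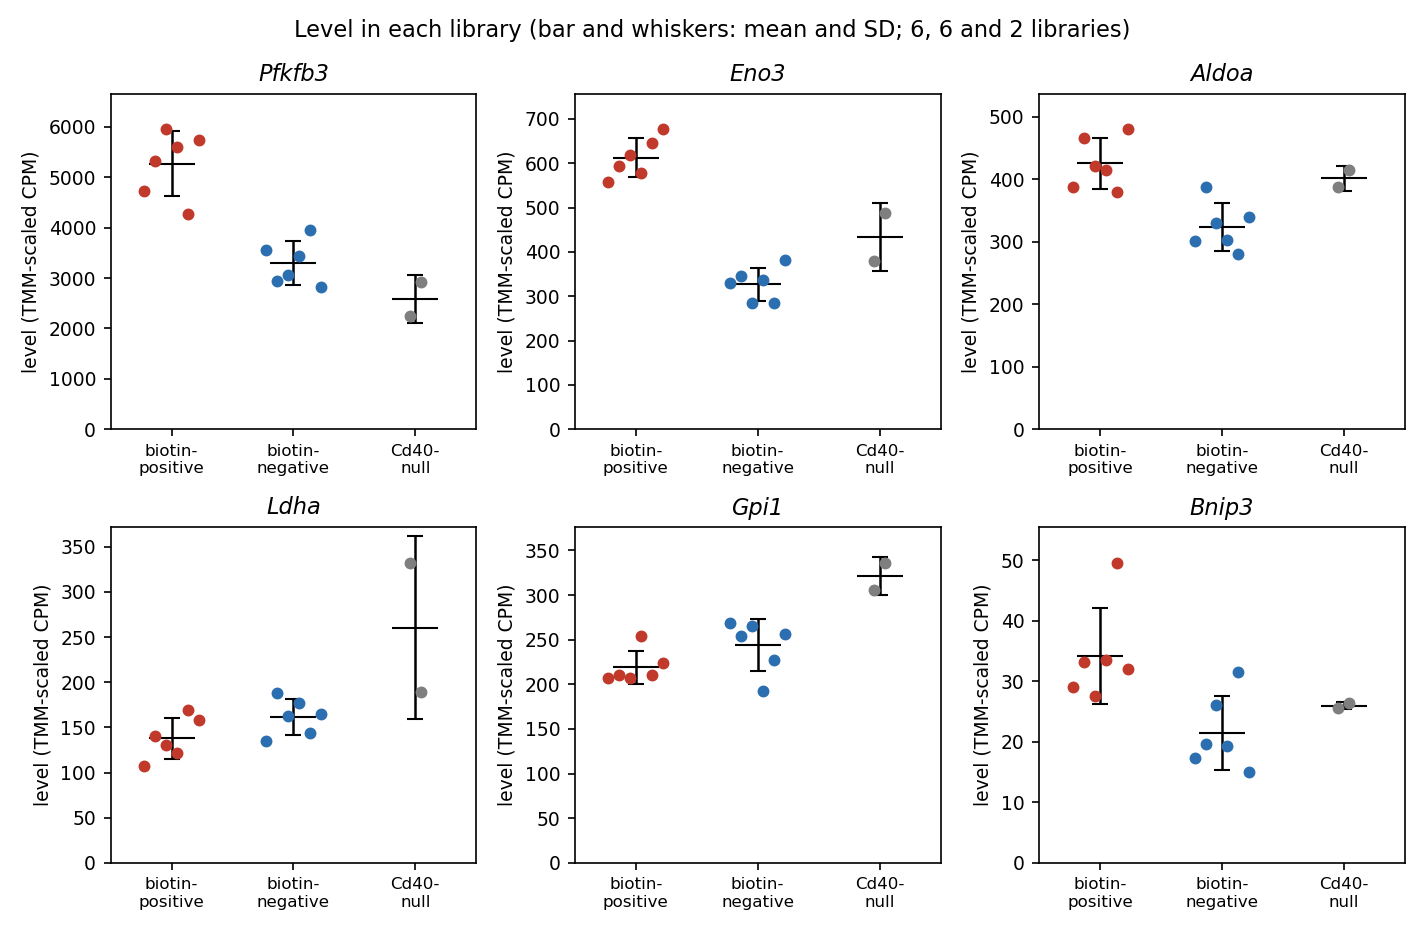
Level in each library (CPM, axes from 0) of the 5 members called in a comparison and of Bnip3, with the mean and SD of each group. Pfkfb3 and Eno3 in biotin-positive libraries lie above all other libraries, and the Ldha levels of the 2 Cd40-null libraries lie far apart.

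Bnip3, Hk2 and Aldoc were called between the biotin groups only in some alternative fits and stood at lower levels than Pfkfb3, Eno3 and Aldoa. Bnip3, a mitophagy receptor and a HIF target, stood at 27.5, 32.6 and 49.5 CPM (lowest, median, highest) in biotin-positive libraries. The biotin-negative ones were at 14.9, 19.4 and 31.5 CPM, and the Cd40-null ones at 25.5 and 26.4 CPM. The biotin groups overlapped (log2 0.67, SE 0.21, edgeR adjusted p = 0.0606), and DESeq2 called the difference (adjusted p = 0.0278), as did the fit without biotin-negative replicate 5 (adjusted p = 0.0224). Hk2, the inducible hexokinase, was at 1.98 to 4.38 CPM in biotin-positive libraries (median 3.12) and 1.10 to 12.1 CPM in biotin-negative ones (median 9.36), with 12.0 and 10.9 CPM in the Cd40-null libraries. Its log2 difference was -1.23 (SE 0.50, edgeR adjusted p = 0.158), and -1.46 (adjusted p = 0.0425) without biotin-negative replicate 4, whose level of 1.10 CPM lay below all biotin-positive libraries. Aldoc was at 1.34 to 9.93 CPM in biotin-positive libraries and 0 to 2.23 CPM in biotin-negative ones (log2 2.38, SE 1.07, edgeR adjusted p = 0.209), and limma voom called it (adjusted p = 0.0262).

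The other glycolytic enzymes did not pass the test. Gapdh differed by log2 0.13 (95% interval -0.09 to 0.34), Pgk1 by 0.09 (-0.19 to 0.36), Pgam1 by -0.03 (-0.26 to 0.19), Eno1 by -0.08 (-0.40 to 0.25) and Eno2 by 0.17 (-0.04 to 0.37). For Gpi1, the isomerase after hexokinase, the difference was -0.16 (-0.36 to 0.05), for Tpi1 -0.28 (-0.62 to 0.05), for Ldha -0.23 (-0.54 to 0.07) and for Hk1 -0.41 (-0.82 to 0.00). The intervals of Tpi1, Ldha, Hk1 and Eno1 reach past the size called for Aldoa, on the lower side. Among the regulators, Hif1a was at 202 ± 17.9 against 224 ± 50.6 CPM (log2 -0.15, interval -0.42 to 0.13) and Pdk3 at 190.4 ± 28.3 against 211 ± 24.5 CPM (log2 -0.15, interval -0.42 to 0.12). Pfkp, Pfkfb2, Pfkfb4, Pfkl, Ldhb, Pdk1, Pdk2, Pgm1, Pgm2 and Egln1 had log2 differences from -0.48 to 0.63, none of them called. Gapdh, Ldha, Pgk1, Tpi1, Pgam1, Eno1 and Aldoa have near-identical copies in the genome, so their counts are uncertain as single genes.

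Some members were close to absent. Vegfa, the secreted angiogenic factor, had 7 counts in 1 biotin-positive library and 2 to 8 counts in 4 biotin-negative ones, and Egln3 had 1 count in a single biotin-positive library and 30 and 4 counts in 2 biotin-negative ones. Both were at 0 in the Cd40-null libraries, which allows up to 0.0689 CPM (3 counts over the group, a limit that covers counting error only). Pdk4, a kinase induced by fasting and fatty acids, had 62, 17 and 1 counts in 3 biotin-positive libraries and at most 1 count in any other library, and its log2 difference of 5.37 had an interval from 1.26 to 9.48 (edgeR adjusted p = 0.11). Pdk4 passed the low-count filter only through the biotin-positive libraries. Hk3, a hexokinase of myeloid cells, and the muscle subunit Pfkm ran from 0 to 226 and from 0 to 175 counts, with 0 in at least 1 library of each group. Their intervals spanned -4.45 to 2.35 and -2.88 to 3.07 on the log2 scale.

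Biotin-positive DCs were next set against those of Cd40-null mice, which asks about cells that cannot receive the CD40 signal, and the biotin-positive libraries are the same as before. In edgeR, Pfkfb3 was higher in biotin-positive libraries, Gpi1 and Ldha were lower and 27 of 30 members were not called, where 1.22% of all genes were higher and 1.05% lower. The median log2 fold change was 0.02 for the members and 0.04 for all genes. An unadjusted p under 0.05 was found for 9 members, again without a share of all genes to set beside it. Pfkfb3, at 5269 ± 645 against 2588 ± 474 CPM (SD, n = 6 and 2), was 2.04-fold higher (log2 1.03, SE 0.15, edgeR adjusted p = 0.00176). Without Cd40-null replicate 1 its adjusted p was 0.0694.

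Ldha (chromosome 7, 46841475 to 46855627, plus strand) stood at 108, 136 and 169 CPM (lowest, median, highest) in biotin-positive libraries. The biotin-negative ones held 134, 164 and 188 CPM, and the Cd40-null ones 332 and 189 CPM. Both null libraries lay above all others, but the second by only a narrow margin. Ldha in biotin-positive libraries was 1.89-fold lower than in Cd40-null ones (log2 -0.92, SE 0.19, edgeR adjusted p = 0.0181). Without Cd40-null replicate 1 the value was -0.45 (adjusted p = 0.656), and without Cd40-null replicate 2 it was -1.27 (adjusted p = 0.00804). The call was also lost with only the 2 groups compared (-0.93, adjusted p = 0.0551).

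Gpi1 (chromosome 7, 34201330 to 34230336, minus strand) stood at 207, 210.3 and 255 CPM (lowest, median, highest) among biotin-positive libraries. The biotin-negative ones were at 192, 255 and 269 CPM, and the Cd40-null ones at 306 and 336 CPM. Both null libraries lay above all 12 others. The difference from biotin-positive libraries was log2 -0.55 (SE 0.13, edgeR adjusted p = 0.0367), and it was not called without Cd40-null replicate 1 (-0.62, adjusted p = 0.18), without Cd40-null replicate 2 (-0.49, adjusted p = 0.321) or without any of biotin-positive replicates 1, 2, 3, 5 and 6. Its exons overlap Gm26762, a noncoding RNA on the other strand. Hk1 was at 44.98 ± 7.36 against 84.9 ± 17.9 CPM (log2 -0.92, SE 0.26, edgeR adjusted p = 0.0796), with both null libraries above all biotin-positive ones. Eno3 was at 612 ± 44.0 against 434 ± 77.0 CPM (log2 0.50, SE 0.14, edgeR adjusted p = 0.068). DESeq2 and limma voom called both Hk1 (adjusted p = 0.0322 and 0.0429) and Eno3 (0.0113 and 0.0201). In edgeR Hk1 was called without biotin-negative replicate 2 (adjusted p = 0.0493) and without biotin-negative replicate 3 (0.0423), and the adjusted p of Hk1 and Eno3 without Cd40-null replicate 1 was 0.208 and 0.693. Aldoa, higher against biotin-negative libraries, differed by log2 0.08 (interval -0.19 to 0.36) from Cd40-null ones.

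Unlabelled DCs were then set against DCs without CD40, reusing both sets of libraries. In edgeR 0 of 30 members were called, with 10 at an unadjusted p under 0.05 (share of all genes not computed). DESeq2 and limma voom also called 0. Over all genes 0.274% were called higher and 0.0422% lower. The median log2 fold change was -0.23 for the members and 0.06 for all genes. The members with the smallest p were Ldha (162 against 260.5 CPM on average, log2 -0.69, SE 0.20, edgeR adjusted p = 0.213), Eno3 (log2 -0.41, SE 0.13, adjusted p = 0.296) and Gpi1 (log2 -0.40, SE 0.13, adjusted p = 0.348). Hif1a was at 224 ± 50.6 against 159 ± 5.42 CPM (adjusted p = 0.438, log2 0.50, SE 0.19), and Pdk3 at 211 ± 24.5 against 153 ± 45.1 CPM (log2 0.47, SE 0.19, adjusted p = 0.455).

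**Figure D4:**
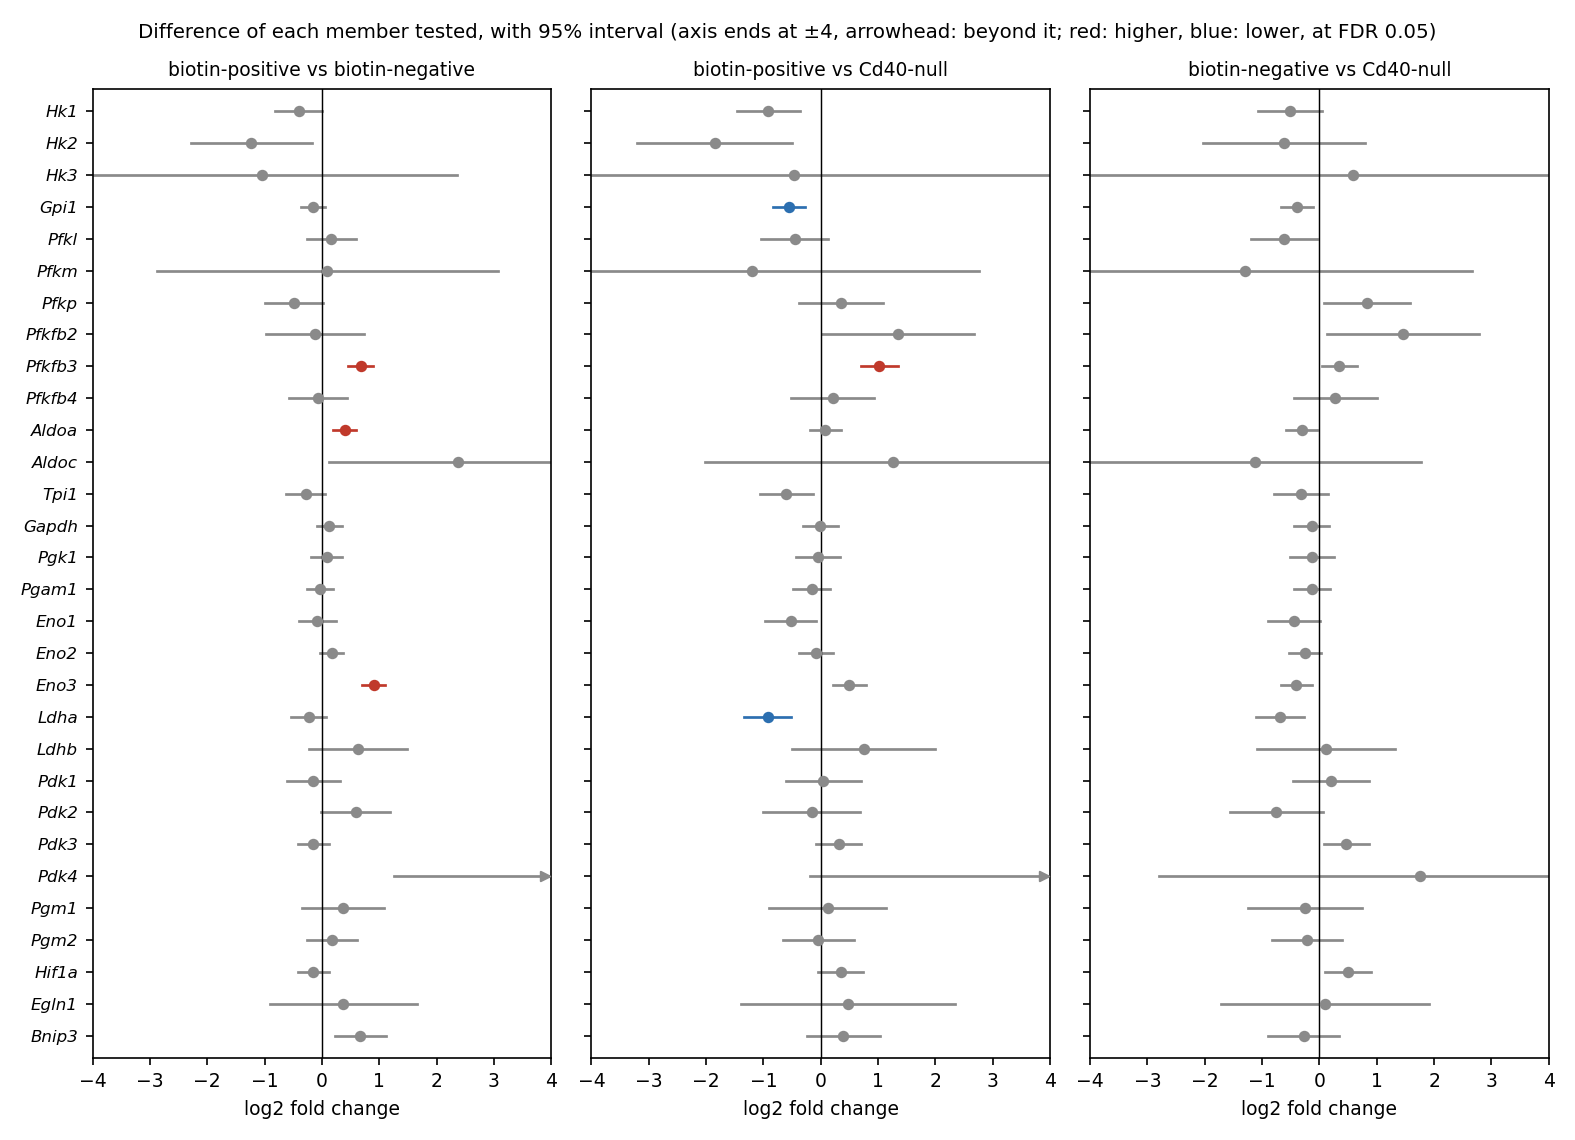
Log2 fold change and 95% interval of the 30 members tested in each of the 3 comparisons, with called members in red (higher) or blue (lower). The comparisons share libraries, and Pfkfb3 is the only member called in more than 1 of them.

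Genes around these members were taken from lists by pathway, whose counts of calls between the biotin groups stand beside 3.7% called higher and 4.05% called lower over all genes, and against Cd40-null libraries beside 1.22% and 1.05%. Of 12 other glycolysis genes tested 0 were called in any comparison in edgeR. At an unadjusted p under 0.05 there were 0, 2 and 1 in the order used above (share of all genes not computed). Pkm, which encodes the last enzyme before pyruvate, stood at 354 ± 40.6, 402 ± 25.5 and 435 ± 71.0 CPM in biotin-positive, biotin-negative and Cd40-null libraries (log2 -0.18, SE 0.09, adjusted p = 0.267 between the biotin groups). Of 11 transporters of glucose and lactate, 1 (9.09%, beside 3.7% of all genes) was higher between the biotin groups. It was Slc2a6, a hexose transporter of lysosomes in macrophages, at 322 ± 40.2 against 248 ± 33.2 CPM (log2 0.38, SE 0.11, edgeR adjusted p = 0.0375). Its call was lost without any of 7 single libraries of the biotin groups and with no low-count filter (adjusted p = 0.0617). The glucose carriers Slc2a1, at 27.1 ± 8.20 against 19.9 ± 6.93 CPM (adjusted p = 0.341, log2 0.45, SE 0.25), and Slc2a3, at 1.502 ± 2.17 against 7.03 ± 5.56 CPM (log2 -2.23, SE 1.164, adjusted p = 0.297), were not called. Neither was the lactate exporter Slc16a3, at 17.7 ± 4.32 against 15.6 ± 4.48 CPM (log2 0.18, SE 0.25, adjusted p = 0.773).

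Of 30 further genes of the HIF pathway or known to be induced by hypoxia, 2 were higher and 1 was lower between the biotin groups (10.0% in all, beside 3.7% higher and 4.05% lower over all genes). Ndrg1, a stress-responsive gene, ran from 451 to 561 CPM in biotin-positive (median 484), from 134 to 352 CPM in biotin-negative (median 185) and was at 175 to 222 CPM in Cd40-null libraries. The biotin-positive libraries lay above all others, 2.39-fold higher than biotin-negative ones (log2 1.26, SE 0.18, edgeR adjusted p = 0.000292) and log2 1.31 (SE 0.27, adjusted p = 0.0163) above Cd40-null ones, the latter a call lost without either null library. Vhl, which marks HIF for destruction, was at 499.9 ± 55.4 against 346 ± 29.3 CPM (log2 0.53, SE 0.09, edgeR adjusted p = 0.00163), and at 469 ± 73.5 CPM in Cd40-null libraries. Ak4, a mitochondrial adenylate kinase, was at 0 in all 6 biotin-positive libraries and at 0.803 ± 0.825 CPM in biotin-negative ones, at least 31.2-fold lower against a floor of 3 counts over the group (0.0257 CPM, edgeR adjusted p = 0.0425). It was at 0 in 1 biotin-negative and in both Cd40-null libraries, and its call was lost in 9 of 12 fits without 1 library. Ak4, the 1 gene of this list called lower, passed the low-count filter only through the biotin-negative libraries. For that reason its call gives no support of its own, although it was also kept with no low-count filter. Against Cd40-null libraries Anxa2, a membrane-binding annexin, was also higher (1286 ± 178 against 855 ± 51.8 CPM, log2 0.59, SE 0.14, edgeR adjusted p = 0.0405), a call lost in 6 of 14 fits without 1 library, both null ones among them. Epas1, the other main HIF alpha subunit, was at 2.501 ± 2.99, 1.09 ± 1.07 and 3.56 ± 0.592 CPM and was not called. The list's median log2 fold change between the biotin groups was 0.10, beside -0.03 over all genes.

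In the branches that leave glycolysis, single genes were called between the biotin groups. Pygl, which releases glucose from glycogen, was at 455.5 ± 109.9 against 209 ± 38.4 CPM (log2 1.13, SE 0.16, edgeR adjusted p = 0.000252) and was also above the Cd40-null level of 230.3 ± 33.9 CPM (log2 0.98, SE 0.24, adjusted p = 0.0367, lost in 6 of 14 fits without 1 library, both null ones among them). It was the 1 called of 12 genes of glycogen and gluconeogenesis (8.33%, beside 3.7% higher of all genes). Of 10 pentose phosphate genes 1 was higher and 1 lower, again beside 3.7% and 4.05% of all genes. G6pdx, the entry enzyme, was at 36.7 ± 8.12 against 62.4 ± 17.8 CPM (log2 -0.77, SE 0.20, edgeR adjusted p = 0.0281), and Prps1, which makes the nucleotide precursor from ribose phosphate, stood at 72.9 ± 9.93 CPM in biotin-positive libraries, with 40.1 ± 16.8 CPM in biotin-negative ones (log2 0.86, SE 0.25, adjusted p = 0.0445). Each was lost without many of the single libraries, G6pdx in 8 and Prps1 in 10 of 14 such fits. Of 28 genes of pyruvate entry and the TCA cycle 1 was higher (3.57%), a share near the 3.7% of all genes. It was the pyruvate carboxylase Pcx, at 27.4 ± 8.76 against 11.9 ± 5.49 CPM (log2 1.201, SE 0.30, edgeR adjusted p = 0.0213, lost without biotin-positive replicate 6). Of 18 upstream regulators 2 were higher (11.1%, beside 3.7% of all genes). These were Srebf1, a factor of lipid synthesis (112 ± 15.2 against 76.4 ± 8.75 CPM, log2 0.56, SE 0.14, edgeR adjusted p = 0.0188), and Tsc2, an inhibitor of mTOR signalling (159 ± 32.6 against 105.1 ± 23.0 CPM, log2 0.59, SE 0.16, adjusted p = 0.0276, lost in 5 of 14 fits without 1 library). The lists' median log2 fold changes between the biotin groups were 0.36 for other glycolysis, 0.10 for transport, -0.04 for the TCA cycle, 0.09 for pentose phosphate, 0.27 for glycogen and 0.21 for upstream genes. Over all genes the median was -0.03. Of the 12 other glycolysis genes 8 lay above 0 and 0 were called, and Pkm, which had the highest level of them, had -0.18. With detected genes in the model 0 of the pathway genes named were called between the biotin groups. The log2 difference in that fit was 1.87 for Ndrg1 (adjusted p = 0.0848), 1.10 for Pygl (0.294), 0.40 for Vhl (0.543), 1.159 for Prps1 (0.522), -1.09 for G6pdx (0.374) and 0.43 for Slc2a6 (0.564). It was 0.67 for Pcx (0.797), 0.27 for Srebf1 (0.843) and 0.49 for Tsc2 (0.72).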

How the data were processed

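Polyadenylated RNA of 14 libraries was sequenced as 38 bp paired-end reads, per the labels' protocols. The submitters' processing notes name mm10, RSEM 1.2.8, Bowtie2 2.1.0 and DESeq2 1.16.0, while their roles and the gene annotation are not given in the sources used here. The main deposited table holds expected counts by gene symbol, already whole numbers, and was used as it stands. A further deposited table of normalized values was not used.

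Genes were kept with filterByExpr (min.count 10), scaled with TMM factors and fitted together in edgeR 4.0.16 (R 4.3.3, glmQLFit with robust=TRUE) with a group factor. Contrasts were two-sided (glmQLFTest) with Benjamini-Hochberg adjustment over all 14217 genes at an FDR of 0.05. All adjusted p in the text are over all genes tested. SE is |log2 fold change| over √F, and 95% intervals use the t quantile of that test. CPM are TMM-scaled, with SD over libraries. Lengths and positions are from GENCODE on GRCm38 (mm10), 1-based. Pgm1 and Pgm2 were given none, because the annotations exchange these symbols. No pair of libraries had identical counts.

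The members and lists were chosen with earlier results of these data known. Members called in any comparison and the leading member of each step are named with values, as are up to 4 called genes of each list with the smallest p, and Pkm, Slc2a1, Slc2a3, Slc16a3, Epas1 and Vhl. Other members named were chosen after their values were seen. Alternatives were RLE scaling, no filter, a filter at a CPM of 5 in 2 libraries, DESeq2 1.42.0, limma 3.58.1 voom with quality weights, only the 2 groups compared, the replicate block, the number of detected genes, and each library left out. The pipeline was tested on simulated data.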

Additional observations from a re-analysis of the deposited data

Results flagged for a closer look

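In 8 of 64 sets of 6 libraries (32 members in each biotin group), 1 library lay so far from the rest that its gap to the next, as a share of the range, passed the 95% limit of Dixon's test. Chance gives about 1 in 20 such sets. In biotin-positive libraries Gpi1 reached 255 CPM in replicate 4, with the next at 223 CPM. Bnip3 reached 49.5 CPM in replicate 5 (next 33.5), and Pfkl dropped to 38.9 CPM in replicate 1 (next 70.5). Pdk4 was at 4.08 CPM in replicate 3 (next 0.961). Egln3 at 0.0613 CPM in replicate 2 and Vegfa at 0.217 CPM in replicate 5 were the only biotin-positive libraries with any count of these genes, so for these 2 sets a single library above 0 passes the limit by construction and the chance rate does not apply. In biotin-negative libraries Pfkp reached 129 CPM in replicate 6 (next 73.5), and Egln3 1.07 CPM in replicate 1 (next 0.229). Pdk4 was at 0 in 3 biotin-positive libraries and Egln3 at 0 in 4 biotin-negative ones, so the chance rate need not hold for these sets either. No excess of such sets can therefore be read from the 8 of 64.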

How the results depend on the processing

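Reads without molecular identifiers are not independent molecules, so limits from counts of 0 cover counting error only, and 2 null libraries limit every comparison with them. Between the biotin groups the 3 members called higher became 0 with the detected-gene covariate, and stayed at 3 or 4 otherwise. Without single libraries 3 to 4 were higher and 0 to 1 lower. Against Cd40-null libraries 1 member was higher and 2 were lower. DESeq2 and limma voom each called 2 higher and 3 lower, only the 2 groups compared gave 1 lower, Ldha being lost, and fits without single libraries gave 0 to 1 higher and 0 to 3 lower, with 0 and 0 without Cd40-null replicate 1. The cause was not tested. Same-numbered libraries did not deviate together (correlations of deviations from -0.023 to 0.013 between the biotin groups, with the best match at its own number in 1 of 6). In libraries of so few cells this cannot exclude that they were paired. With the replicate block 4 members were higher between the biotin groups, Bnip3 being added (adjusted p = 0.0489), and 1 higher and 0 lower against Cd40-null libraries, where 129 genes were called in place of 323. The block also ended the calls of Ak4 between the biotin groups and of Ndrg1, Anxa2 and Pygl against Cd40-null libraries, the last 2 lost also with only the 2 groups compared. Over all genes 11 were called between the biotin groups with the covariate and 1102 without it. Against Cd40-null libraries DESeq2 called 770, limma voom 606, and fits without either null library 78 and 95. Between biotin-negative and Cd40-null libraries 45 calls became 270 with DESeq2, 29 with only the 2 groups, 19 with the replicate block, 6 with the covariate and 21 and 12 without a null library. No filter moved the median of all genes to log2 -0.21 between the biotin groups and 0.29 between biotin-negative and Cd40-null. With the longest transcript as length, Eno3 made 70.1%, 56.1% and 56.7% of enolase in biotin-positive, biotin-negative and Cd40-null libraries, and in the last Pfkl made 81.9%, Ldha 96.6% and Pdk3 80.1% of their families. Among 524 log2 fold changes of single genes in the alternative fits, 0 reversed a called direction. These values cover genes called in at least 1 fit. They come from the fits listed above, which reuse most of the same libraries, so they give no independent support.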
